A study of Mus musculus with 10 samples.

Results

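Induced oligodendrocyte progenitor cells (iOPC) at passage 5 were compared with primary oligodendrocyte progenitor cells (OPC) on Illumina bead arrays of mouse RNA, using 4 of the series' 10 arrays. The iOPC p5 group holds the 2 samples titled PC2FiOPCp5, which per the design text are progenitors induced from pericytes and grown for 5 passages. The OPC group holds the 2 samples titled OPC, whose cell type label reads oligodendrocyte. Both groups come from the strain C57BL/6, and the labels name no other genotype, no inducing factor and no age. The remaining arrays hold pericytes (PC) and iOPC at passages 15 and 25, again with 2 samples each, and they enter the fit of the spread. A gene was kept if a probe with 1 symbol was detected (p-value under 0.01) on 2 or more of these 4 arrays. This left 8486 of the 16593 genes on the array. The labels do not say whether 2 samples of a group came from separate cultures, so p-values measure only the spread between arrays, whose number limits the precision.

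OPC are the dividing glial cells that carry the PDGF receptor alpha and the proteoglycan NG2 and that give rise to the myelinating oligodendrocytes of the central nervous system. Transcription factors of the Olig and SoxE families set up the lineage, and differentiation switches on genes of myelin membrane while progenitor genes are turned down. Pericytes wrap small vessels and carry contractile, matrix and forkhead genes that are not typical of OPC.

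Expression is deposited as a signal table with detection p-values and as a table of the authors' log2 values, and the columns with like headings did not hold like profiles. Over the 8486 genes, the mean Pearson correlation between the tables was 0.977 for the columns headed PC. It was 0.861 for those headed iOPC p5 and 0.786 for those headed OPC. Value columns with the OPC heading came closest to the signal columns headed iOPC p15 (0.977). Within the signal table the iOPC p5 and OPC arrays correlated at 0.964, and within the value table at 0.804. Replicates correlated at 0.996 (iOPC p5) and 0.997 (OPC) in the signal table, and at 0.953 (iOPC p5) and 0.995 (OPC) in the other. Those 2 value columns for iOPC p5 thus stood further apart than the other replicates, and their mean correlation with the passage 25 columns was 0.952. Sex-linked transcripts differed as well. Xist, the RNA that silences an X chromosome, stood at 9.50 and 9.52 log2 signal on the iOPC p5 arrays and at 9.40 and 9.47 on the OPC arrays. In the value table it stood at 9.33 and 9.14 in the iOPC p5 columns and at 1.55 and 1.47 in the OPC columns. The Y-linked translation factor gene Eif2s3y was not detected on any of the 4 signal arrays, while its value was 1.98 and 1.73 in the iOPC p5 columns and 9.76 and 9.62 in the OPC columns. On the signal arrays headed iOPC p15, Eif2s3y stood at 9.89 and 9.74. No column was reassigned, and which table's headings are right was not tested. Each result below is given as iOPC p5 minus OPC under the headings of the table named, so its direction holds for that table's headings only.

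**Figure D1:**
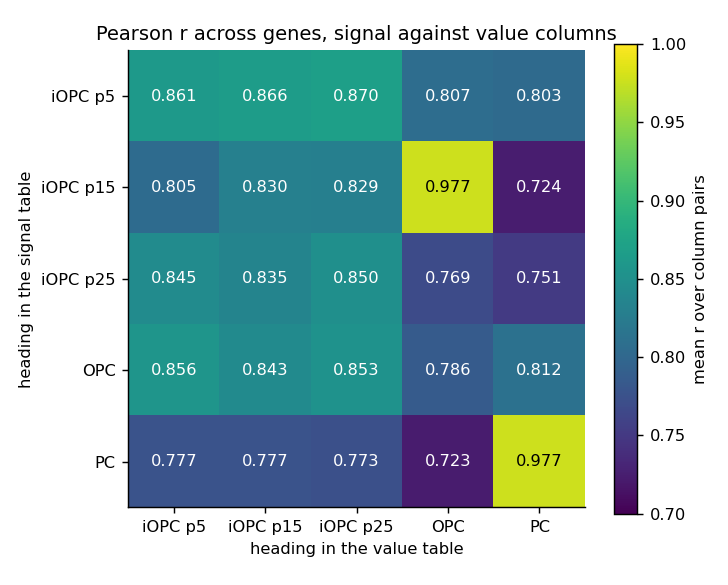
Mean Pearson correlation across 8486 genes between each pair of columns, with the headings of the signal table down the side and those of the value table along the bottom. Colour runs from 0.70 to 1.00; PC matches PC at 0.977, OPC matches OPC at 0.786, and the value columns headed OPC reach 0.977 with the signal columns headed iOPC p15.

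The markers fixed for the cell types were first read from the signal table. Of 10 OPC markers 7 had a value, and 5 of them (Pdgfra, Cspg4, Olig1, Gpr17 and Bcan) were detected on both arrays of both groups. Olig2, a transcription factor that OPC need, was detected on 0 of 2 iOPC p5 arrays (4.73 and 4.80 log2 signal) and on 1 of 2 OPC arrays (4.91 and 4.83). Nkx2-2, a homeobox factor of the lineage, was detected on none of the 4, while it stood at 10.93 and 10.93 on the signal arrays headed iOPC p15. The arrays headed OPC therefore lacked clear signal for 2 transcription factors that the heading would carry. Of the oligodendrocyte markers Mobp, Ermn and Opalin were not detected on any of the 4 arrays. Among other cell types, none of the endothelial (4 with a value) and microglial (5 with a value) markers was detected on the 4 arrays. Of 8 astrocyte markers 5 were detected, without Aqp4, Aldh1l1 and Slc1a2, and of 7 neuronal markers 2 were, without Snap25, Stmn2, Tubb3, Rbfox3 and Syt1. Sox10 and Mki67 were not analysed here.

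Signals of fibroblast markers were present in both groups and were lower in iOPC p5 in the signal table. All 5 fibroblast markers with a value were detected on at least 1 of the 4 arrays, and their summed normalized signal was 3922 and 3799 on the iOPC p5 arrays, against 9367 and 8840 on the OPC arrays. The 8 pericyte and mural markers summed to 298 and 320 on the iOPC p5 arrays, against 639 and 630 on the OPC arrays, with Rgs5, Abcc9, Anpep and Des not detected on any. The OPC markers summed to 7138 and 7030 on the iOPC p5 arrays and to 5443 and 5389 on the OPC arrays. In the value table each of these sums ran the other way. The fibroblast sum was 821 and 572 in the iOPC p5 columns and 15 and 16 in the OPC columns. The pericyte and mural sum was 819 and 800 in the iOPC p5 columns and 443 and 436 in the OPC columns. The OPC marker sum was 16072 and 23015 in the iOPC p5 columns and 33594 and 32501 in the OPC columns. In these bulk samples, fewer cells of a type and less RNA per cell cannot be told apart. The part of such cells in the results below was not tested.

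In the signal table, iOPC p5 differed from OPC by small amounts in many genes. By limma's moderated test, with p-values adjusted over all 8486 genes by Benjamini-Hochberg and a call at 0.05, 3961 genes (46.7%) were called, of which 2110 (24.9%) were higher in iOPC p5 and 1851 (21.8%) were lower. The median size of the change was 0.25 on the log2 scale. At least 2-fold changes among these calls numbered 162 higher (1.91%) and 280 lower (3.3%). These counts depended on the background correction, with 43 higher and 126 lower without one and 66 higher and 165 lower with normexp fitted by maximum likelihood without control probes. The probes detected were 47.8% and 47.5% on the iOPC p5 arrays and 49.2% and 46.9% on the OPC arrays, and the mean signal before correction was 344 and 348 on the iOPC p5 arrays and 333 and 374 on the OPC arrays.

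Of 28 gene lists the one with the lowest median change was that of the immediate early and stress genes, which cells switch on within minutes of growth factors and other stimuli. Of 27 members tested, 24 fell, 1 rose and 2 did not pass. The median log2 change of the list was -1.53, against 0.02 over all genes, and 18 of the falls were at least 2-fold. Fos, a subunit of the AP-1 transcription factor, stood at 10.48 and 10.47 log2 signal on the iOPC p5 arrays and at 13.45 and 13.44 on the OPC arrays. This is a log2 change of -2.97 (SE 0.0734, limma adjusted p 4.06e-09), and the arrays of the groups lay far apart. Egr1, a zinc finger factor induced by serum, averaged 10.88 ± 0.17 on the iOPC p5 arrays and 13.72 ± 0.04 on the OPC arrays (SD, n = 2 each). Its relative Egr2 stood at 8.39 and 8.44 on the iOPC p5 arrays and at 11.62 and 11.69 on the OPC arrays. For both genes the arrays of the groups lay far apart.

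Further members of this list, and others of the largest falls in the table, encode regulators of RNA decay, kinases and growth. Zfp36, which marks AU-rich messenger RNAs for decay, stood at 7.73 and 7.71 on the iOPC p5 arrays and at 11.06 and 11.19 on the OPC arrays (log2 change -3.40, SE 0.0793, limma adjusted p 4.06e-09). The phosphatase gene Dusp10, which acts on stress kinases, stood at 5.43 and 5.28 on the iOPC p5 arrays and at 8.78 and 8.65 on the OPC arrays. Dusp1, a phosphatase of MAP kinases, fell by 2.79. Klf4, a zinc finger factor also used in reprogramming, stood at 6.30 and 6.28 on the iOPC p5 arrays and at 9.70 and 9.76 on the OPC arrays. Klf2 fell by 2.86, Junb, a further AP-1 subunit, by 3.00, Csrnp1, a nuclear protein induced by axin, by 3.34, and the growth arrest gene Gadd45g by 3.27. Atf3, a stress-induced factor of the ATF family, was not detected on the iOPC p5 arrays (4.34 and 4.46) and was detected on both OPC arrays (7.59 and 7.52). It was at least 6.65-fold lower in iOPC p5. Atf3 passed the detection filter only through the OPC arrays, and its limma adjusted p of 4.09e-08 belongs to the fitted change, not to this bound. Against the list, the heat shock gene Hspa1a rose by 0.37. Fos, Junb, Dusp1 and Hspa1a were named after their values were seen.

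Across all 5 groups of the signal table the OPC arrays had the highest mean for 18 of the 27 immediate early genes, while they were highest for 13.4% of all genes tested. The iOPC p5 arrays were highest for 2. For Fos the means were 10.47 in iOPC p5, 10.03 in iOPC p15, 12.08 in iOPC p25 and 9.55 in PC, against 13.45 in OPC. The OPC arrays thus stood above every other group for this gene.

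**Figure D2:**
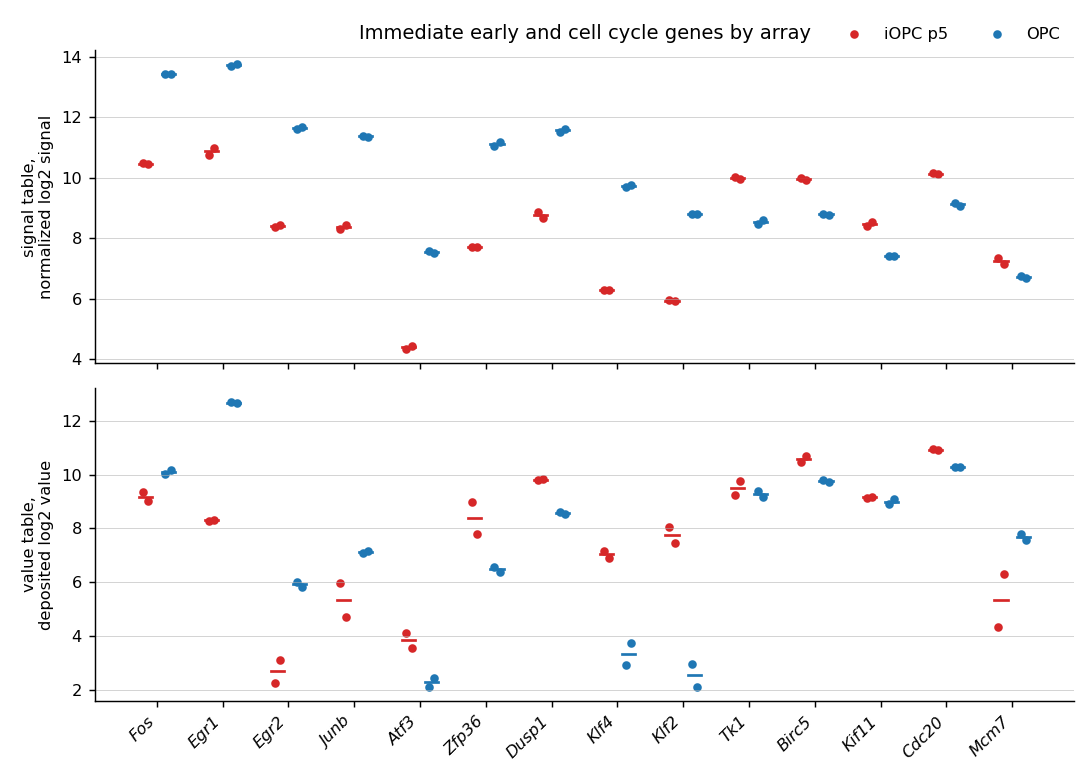
Log2 signal (top) and deposited log2 value (bottom) of 9 immediate early and 5 cell cycle genes, with a point per array and a bar at the group mean; iOPC p5 stands left of OPC. In the signal table every immediate early gene shown is lower in iOPC p5 and every cell cycle gene is higher; in the value table Klf4 and Klf2 are higher in iOPC p5 and Egr1 and Egr2 lower.

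Of the 24 immediate early genes that fell, 20 had a promoter in the RefSeq table (GRCm38.p6). Within 250 bases before the start, on either strand, the CArG box bound by serum response factor was found in 2 of the 20 (10.0%, Egr2 and Zfp36). It was found in 1.62% of 27025 genes with a promoter, which were not limited to the 8486 genes tested. The cyclic AMP response element TGACGTCA was found in 1 of the 20 (Dusp1), against 1.77% of the 27025 genes. One stretch of 120 bases just before the start is shown for a gene with the largest falls, with the CArG box in capitals, 5′ to 3′ on the minus strand, chr7:28379229-28379348.
Zfp36: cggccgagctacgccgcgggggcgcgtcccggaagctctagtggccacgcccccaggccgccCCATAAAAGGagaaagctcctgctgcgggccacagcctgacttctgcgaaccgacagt
These matches describe the letters of the promoters only.

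Genes of TGF-beta and BMP signalling were mostly lower in iOPC p5 in the signal table. Of 27 TGF-beta and BMP pathway genes, 16 were lower in iOPC p5, 4 were higher and 7 did not pass, with a median log2 change of -0.44. The value table had 13 of them higher and 7 lower (median 0.36), and 10 of the 27 were called in opposite directions in the tables. Id1 and Id3 encode inhibitors of basic helix-loop-helix factors and respond to BMP. Id1 stood at 5.43 and 5.30 on the iOPC p5 arrays and at 7.94 and 7.99 on the OPC arrays (log2 change -2.60, SE 0.119, limma adjusted p 1.51e-07). Id3 stood at 7.34 and 7.27 on the iOPC p5 arrays and at 9.69 and 9.66 on the OPC arrays. Tgfbi, a matrix protein induced by TGF-beta, fell by 2.23 in the signal table and rose by 5.55 in the value table. Against the list in the signal table, the ligand gene Bmp7 rose by 1.36, and Inhbb, an activin subunit, rose by 2.07. Inhbb was detected on 1 of 2 OPC arrays.

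All 36 cell cycle and DNA replication genes tested were higher in iOPC p5 in the signal table. Their median log2 change was 0.77, and 6 of them changed at least 2-fold. Thymidine kinase Tk1, which serves DNA precursor supply, stood at 10.03 and 9.95 on the iOPC p5 arrays and at 8.49 and 8.61 on the OPC arrays (log2 change 1.44, SE 0.0801, limma adjusted p 4.69e-07). Birc5, a subunit of the chromosomal passenger complex, stood at 9.98 and 9.93 on the iOPC p5 arrays and at 8.82 and 8.78 on the OPC arrays. The thymidylate synthase gene Tyms rose by 1.12 and the spindle kinesin gene Kif11 by 1.06. The smallest change was that of the replicative helicase gene Mcm2, at 0.23 (limma adjusted p 0.0286). It lost its call when any of the 4 arrays was left out, with changes between 0.21 and 0.25 and limma adjusted p-values between 0.0697 and 0.12. Counts of the list stayed between 32 and 34 of 36 in the same 4 fits. Among all 5 groups the means were highest in iOPC p15 for 20 of the 36, in iOPC p5 for 10 and in OPC for 0. Of 9 cyclin D and cell cycle inhibitor genes 4 were higher and 1 was lower by signal (median log2 change -0.04), and 4 were higher and 2 lower by deposited value (median 0.45). Cyclin D1 (Ccnd1) rose by 0.61 in the signal table and the inhibitor genes Cdkn1a, Cdkn2d and Cdkn2c by 0.57, 0.57 and 0.33, while Ccnd2 fell by 0.58.

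The promoters were searched for 2 motifs known from cell cycle genes. Of the 36, 32 had a promoter in the RefSeq table. The CCAAT box, bound by NF-Y, lay within 250 bases before the start, on either strand, in 23 of them (71.9%). It lay there in 37.5% of all 27025 genes with a promoter, tested here or not. The letters TTTGAA, the core of the cell cycle genes homology region, were found in 8 of the 32 (25.0%), against 18.3% of the 27025 genes. Windows of 120 bases just before the start are printed for 4 genes that hold both motifs, with each match in capitals (ATTGG and TTCAAA are the same motifs on the other strand) and with no match overlapping another. They lie at chr4:118437344-118437463 (Cdc20, minus strand), chr10:69352913-69353032 (Cdk1, minus strand), chr19:37376262-37376381 (Kif11, plus strand) and chr2:164769809-164769928 (Ube2c, plus strand).
Cdc20: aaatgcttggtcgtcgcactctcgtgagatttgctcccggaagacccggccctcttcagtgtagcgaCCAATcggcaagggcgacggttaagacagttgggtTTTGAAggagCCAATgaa
Cdk1: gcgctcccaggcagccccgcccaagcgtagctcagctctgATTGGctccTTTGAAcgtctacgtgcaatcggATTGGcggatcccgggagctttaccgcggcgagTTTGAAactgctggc
Kif11: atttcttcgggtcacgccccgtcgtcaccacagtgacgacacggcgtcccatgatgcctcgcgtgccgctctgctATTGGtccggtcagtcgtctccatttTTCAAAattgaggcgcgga
Ube2c: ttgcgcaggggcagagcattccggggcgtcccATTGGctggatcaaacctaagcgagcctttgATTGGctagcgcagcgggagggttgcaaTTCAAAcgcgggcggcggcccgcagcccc
Cdc20, an activator of the anaphase-promoting complex, rose by 1.01 in iOPC p5. The mitotic kinase gene Cdk1 rose by 0.84, with 10.22 and 10.05 on the iOPC p5 arrays and 9.33 and 9.26 on the OPC arrays. Ube2c, the ubiquitin-conjugating enzyme of the same complex, rose by 0.91. These 3 and the windows were chosen after values and matches were seen.

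Genes of energy and lipid metabolism moved by smaller amounts. Of 39 respiratory chain genes in the signal table, 24 rose and 0 fell, with a median log2 change of 0.30. The value table had 14 of them lower and 0 higher (median -0.27). Ndufc1, a subunit of complex I, rose by 0.51 in the signal table. Of 29 genes of cholesterol and fatty acid synthesis 14 rose and 2 fell by signal, with a median of 0.27. By deposited value there were 9 rises and 4 falls (median -0.08). Over all genes tested 24.9% rose and 21.8% fell by signal, and 28.5% rose and 21.5% fell by deposited value. Dhcr7, which makes cholesterol from its last precursor, stood at 8.95 and 9.08 on the iOPC p5 arrays and at 8.23 and 8.14 on the OPC arrays. Glycolysis and hypoxia genes had 3 rises and 11 falls among 23 in the signal table, and 4 rises and 10 falls in the value table. Respiratory chain genes called higher in the signal table numbered between 16 and 32 under the other settings tried. Of 20 p53 target genes 10 were higher and 3 lower by signal, among them Ccng1, a cyclin induced by p53, which rose by 1.23. By deposited value 4 were higher and 11 lower (median -0.75). Btg2, an antiproliferative gene that immediate early stimuli also induce, was not detected on the iOPC p5 arrays.

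Genes of the lineage itself were divided in the signal table. Of 19 OPC identity genes 8 rose and 7 fell (median log2 change -0.05), and of 21 oligodendroglial transcription factors 5 rose and 8 fell (median -0.11). Olig1 stood at 11.11 and 11.05 on the iOPC p5 arrays and at 10.20 and 10.22 on the OPC arrays (log2 change 0.87, SE 0.0733, limma adjusted p 8.33e-06). Sox8, a SoxE factor of glia, stood at 7.25 and 7.13 on the iOPC p5 arrays and at 5.55 and 5.82 on the OPC arrays. Etv4, an ETS factor downstream of FGF signals, rose by 1.37. The stem cell factor gene Sox2 stood at 8.45 and 8.45 on the iOPC p5 arrays and at 9.23 and 9.08 on the OPC arrays, a fall of 0.70. Id4 fell by 1.26.

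Receptors and membrane proteins of progenitors were also divided. Pdgfra, the receptor for PDGF, stood at 11.53 and 11.49 on the iOPC p5 arrays and at 11.29 and 11.35 on the OPC arrays, and its log2 change of 0.19 did not pass (limma adjusted p 0.0733). The arrays of the groups did not overlap. Cspg4, which encodes NG2, rose by 0.49 and the potassium channel gene Kcnk1 by 1.17. Gpr17, a receptor of cells about to differentiate, stood at 7.24 and 6.93 on the iOPC p5 arrays and at 8.26 and 8.23 on the OPC arrays (log2 change -1.16, SE 0.114, limma adjusted p 2.48e-05). The imprinted gene Nnat, a membrane protein of developing neural tissue, fell by 1.05.

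Differentiation genes were lower more often than higher in iOPC p5, with 14 falls and 5 rises among 30 (median log2 change -0.19). Mag, the myelin-associated glycoprotein, was detected on 1 of 2 iOPC p5 arrays (4.69 and 5.09) and on both OPC arrays (7.68 and 7.77), with a fitted change of -2.84 (SE 0.123, limma adjusted p 9.9e-08). Tubb4a, a tubulin of myelinating cells, fell by 2.12, and Enpp6, an enzyme of newly forming oligodendrocytes, by 1.61. The 3 probes of Mbp, myelin basic protein, disagreed. The brightest one changed by 0.31, with calls that ended when OPC replicate 1 (0.18), iOPC p5 replicate 1 (0.27) or iOPC p5 replicate 2 (0.36) was left out, and the other probes changed by -1.19 and -0.44. No direction is given for Mbp.

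**Figure D3:**
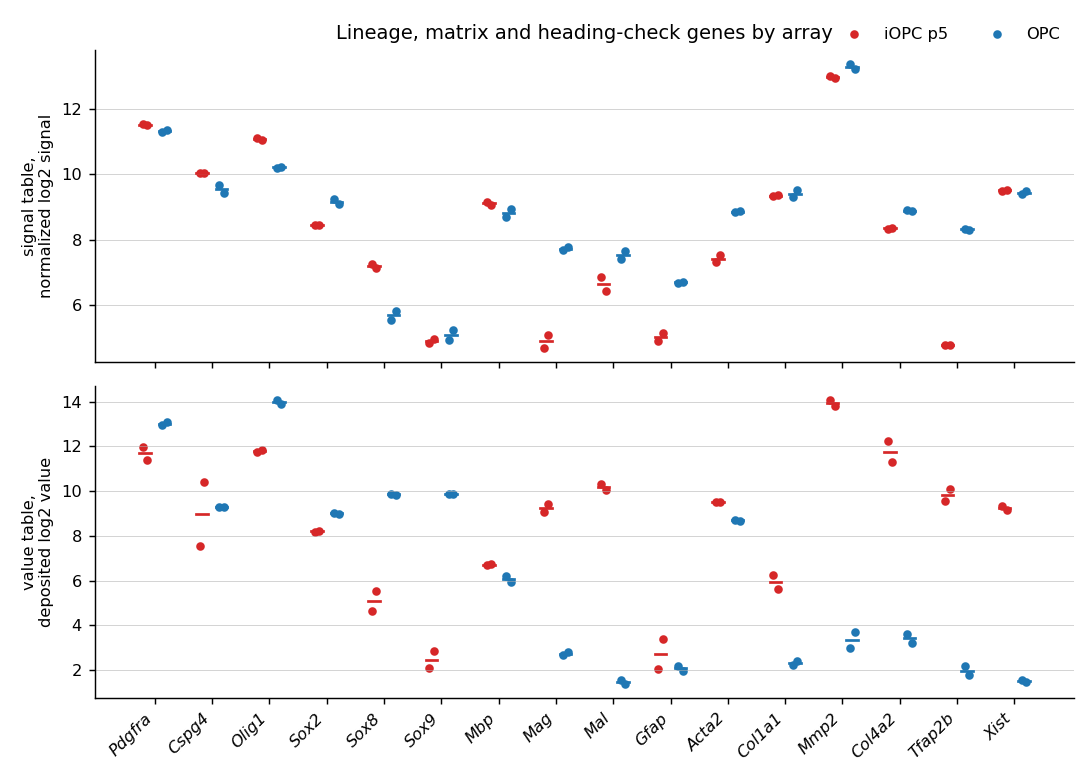
Log2 signal (top) and deposited log2 value (bottom) of 16 lineage, matrix and heading-check genes, with a point per array and a bar at the group mean; iOPC p5 stands left of OPC. Olig1 and Sox8 are higher in iOPC p5 in the signal table and lower in the value table, while Mag, Mal and Tfap2b are lower in the signal table and higher in the value table.

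Matrix and mural genes fell more often than they rose in iOPC p5 in the signal table. Of 32 fibroblast and matrix genes 16 fell and 2 rose (median log2 change -0.33). Decorin (Dcn), a collagen-binding proteoglycan, stood at 8.09 and 8.24 on the iOPC p5 arrays and at 11.77 and 11.67 on the OPC arrays (log2 change -3.56, SE 0.0868, limma adjusted p 4.06e-09). Timp3, an inhibitor of matrix proteases, fell by 1.73 and the collagen gene Col6a2 by 1.47, while Col1a1 stood at 9.32 and 9.36 on the iOPC p5 arrays and at 9.29 and 9.51 on the OPC arrays. Of 15 pericyte and mural genes 10 fell and 2 rose, among them the forkhead gene Foxc1, which fell by 2.03. Smooth muscle actin (Acta2) stood at 7.31 and 7.52 on the iOPC p5 arrays and at 8.84 and 8.87 on the OPC arrays. Of 20 astrocyte genes 9 fell and 3 rose, while the summed signal of the 8 astrocyte markers with a value was higher in iOPC p5, at 8205 and 8047 on the iOPC p5 arrays and 5776 and 6225 on the OPC arrays. For the pericyte and mural genes the value table had 6 rises and 3 falls (median 0.64). Gfap, the intermediate filament of astrocytes, had a log2 signal of 4.91 and 5.15 on the iOPC p5 arrays and of 6.66 and 6.71 on the OPC arrays, and Fabp7, a lipid-binding protein of radial glia, rose by 1.52.

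Cytokines had 10 falls and 3 rises among 16 in the signal table, and 3 falls and 7 rises in the value table. The interleukin gene Il6 was not detected on the iOPC p5 arrays (4.23 and 4.38) and was detected on both OPC arrays (7.69 and 7.32). It was at least 6.42-fold lower in iOPC p5 (limma adjusted p of the fitted change 5.65e-08). Like Atf3, it passed the filter only through the OPC arrays. The neutrophil chemokine gene Cxcl5 fell by 2.52. Interferon and antigen presentation genes went the other way, with 13 rises and 1 fall among 27 (median log2 change 0.30). Psmb9, a subunit of the immunoproteasome, stood at 6.88 and 6.68 on the iOPC p5 arrays and at 5.62 and 5.73 on the OPC arrays.

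The largest falls of single genes in the signal table began with galectin 3 (Lgals3), a sugar-binding protein of macrophages and reactive glia. It stood at 5.76 and 5.90 on the iOPC p5 arrays and at 10.94 and 10.92 on the OPC arrays (log2 change -5.10, SE 0.0849, limma adjusted p 3.12e-10). Its mean was 5.36 in iOPC p15, 8.93 in iOPC p25 and 12.05 in PC. Tfap2b, an AP-2 factor of neural crest, was not detected on the iOPC p5 arrays (4.76 and 4.77) and stood at 8.31 and 8.31 on the OPC arrays. It was at least 11.2-fold lower (limma adjusted p of the fitted change 1.79e-08) and passed the filter only through the OPC arrays. Syt4, a vesicle protein of secretory cells, was detected on 1 of 2 iOPC p5 arrays and changed by -3.44. The largest rise was that of the tetraspanin gene Tspan8, with 9.66 and 9.67 on the iOPC p5 arrays and 6.11 and 6.67 on the OPC arrays (log2 change 3.27, SE 0.181, limma adjusted p 4.54e-07). The AP-2 factor gene Tfap2c rose by 2.85 and Meox1, a homeobox gene of somites, by 2.82. Gad1, which makes the transmitter GABA, rose by 2.15, the cytokine-like gene Cytl1 by 2.15, the neurotrophin 3 receptor gene Ntrk3 by 2.12, and the meiotic recombination gene Spo11 by 2.03. Smr3a, a salivary gland gene, rose by 2.46, and Wfdc18, a gene of a protease inhibitor family, by 2.06.

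In the value table the contrast between the same headings gave larger changes. Its OPC columns came closest to the signal columns headed iOPC p15 (0.977), against 0.786 with the signal columns headed OPC. By the same limma fit 4239 genes (50%) were called, with 2416 (28.5%) higher in iOPC p5 and 1823 (21.5%) lower, and the median size of the change was 0.64 on the log2 scale. Calls of at least 2-fold numbered 1580 higher (18.6%) and 1056 lower (12.4%). These counts depended on the detection filter, which was read from the iOPC p5 and OPC arrays of the signal table. Genes not detected there were left out whatever their deposited value, and the list counts below cover only members that passed. With no detection filter, 16593 genes gave 2332 higher and 1993 lower calls. Of these, 1838 higher and 1544 lower were at least 2-fold. Leaving out OPC replicate 1 or 2 left 1179 or 1181 lower calls and 1805 or 1786 higher ones. Without iOPC p5 replicate 1 or 2, which stood apart, there were 2067 or 2069 lower calls and 2339 or 2776 higher ones. Detection was not recorded there, and a change means a difference of deposited log2 values.

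Matrix genes were much higher in the iOPC p5 columns of the value table. Of 32 fibroblast and matrix genes 23 rose and 3 fell, with a median log2 change of 2.69, against 0.06 over all genes. Mmp2, a gelatin-degrading protease, stood at 14.07 and 13.78 in the iOPC p5 columns and at 3.00 and 3.70 in the OPC columns (log2 change 10.57, SE 0.247, limma adjusted p 1.07e-07). Thrombospondin 2 (Thbs2), an adhesion-modulating matrix protein, stood at 12.93 and 12.71 in the iOPC p5 columns and at 2.72 and 2.18 in the OPC columns. Pcolce, an enhancer of procollagen cleavage, rose by 8.83 and Hapln1, which links hyaluronan to proteoglycans, by 10.09. Of 14 basement membrane genes 13 rose and 1 fell (median 3.27), against 4 rises and 6 falls in the signal table (median -0.21). Col4a2, a chain of collagen IV, stood at 12.24 and 11.30 in the iOPC p5 columns and at 3.62 and 3.21 in the OPC columns. Against the list, the extracellular glycoprotein gene Fbln2 fell by 7.33.

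Myelin and neural crest genes rose with them. Of 30 differentiation genes 18 rose and 5 fell (median log2 change 0.82). Mal, a membrane protein of myelin, stood at 10.33 and 10.04 in the iOPC p5 columns and at 1.55 and 1.39 in the OPC columns, and Mag stood at 9.08 and 9.43 in the iOPC p5 columns and at 2.66 and 2.81 in the OPC columns. Mog, a late myelin protein that was not tested, stood at 9.30 and 10.64 in the iOPC p5 columns and at 1.87 and 1.72 in the OPC columns. Against the list, the tight junction gene Cldn11 fell by 5.98. Of 16 Schwann cell and neural crest genes 13 rose and 3 fell (median 2.75), against 1 rise and 8 falls in the signal table (median -0.36). The rises by value included the AP-2 genes Tfap2b (7.86) and Tfap2a (7.40) and the mesenchymal factor gene Twist1 (5.56). Interferon and antigen presentation genes had 22 rises and 1 fall among 27 (median 2.41). Bst2, which tethers enveloped viruses, rose by 5.65.

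Lineage transcription factors were lower in the iOPC p5 columns of the value table. Of 21 oligodendroglial transcription factors 17 fell and 1 rose (median log2 change -1.17), and the OPC columns were highest of the 5 groups for 18 of them, against 26.6% of all genes. Sox9, a factor of glial specification, stood at 2.07 and 2.87 in the iOPC p5 columns and at 9.86 and 9.86 in the OPC columns (log2 change -7.39, SE 0.251, limma adjusted p 3.97e-07). Olig1 stood at 11.74 and 11.82 in the iOPC p5 columns and at 14.07 and 13.88 in the OPC columns. Olig2, which was not tested, stood at 1.49 and 4.78 in the iOPC p5 columns and at 8.29 and 8.27 in the OPC columns. Nkx2-2, also untested, stood at 7.26 and 7.40 in the iOPC p5 columns and at 11.27 and 11.19 in the OPC columns. Pdgfra fell by 1.33. For Cspg4 the iOPC p5 columns, at 7.56 and 10.43, lay on either side of the OPC columns, at 9.30 and 9.29. The fitted change of -0.30 was 1.13 without iOPC p5 replicate 1 and -1.73 without replicate 2, so no direction is given.

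The largest falls in the value table included genes known from neural cells. The cyclin D2 gene Ccnd2 stood at 2.40 and 2.36 in the iOPC p5 columns and at 13.46 and 13.46 in the OPC columns (log2 change -11.08, SE 0.417, limma adjusted p 6.06e-07). The proteoglycan gene Ncan, neurocan, stood at 2.55 and 2.37 in the iOPC p5 columns and at 11.32 and 11.30 in the OPC columns. Fxyd6, a regulator of the sodium pump, fell by 8.96, Astn1, a neuronal adhesion gene, by 8.54, and Acsbg1, which activates fatty acids in brain, by 8.07. Of 6 genes tested of the neuron list 5 fell, and of 20 of the astrocyte list 11 fell and 4 rose. Slc1a3, the glutamate transporter of astrocytes, stood at 7.42 and 7.79 in the iOPC p5 columns and at 12.85 and 12.72 in the OPC columns. Sums were taken over the marker sets fixed for the cell types, 8 for astrocytes and 7 for neurons, which are not these lists. The astrocyte set summed to 4014 and 4086 in the iOPC p5 columns of the value table, against 12560 and 12175 in its OPC columns. The neuron set summed to 1135 and 914, against 5166 and 4406. The part of these cell types in the falls was not tested.

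**Figure D4:**
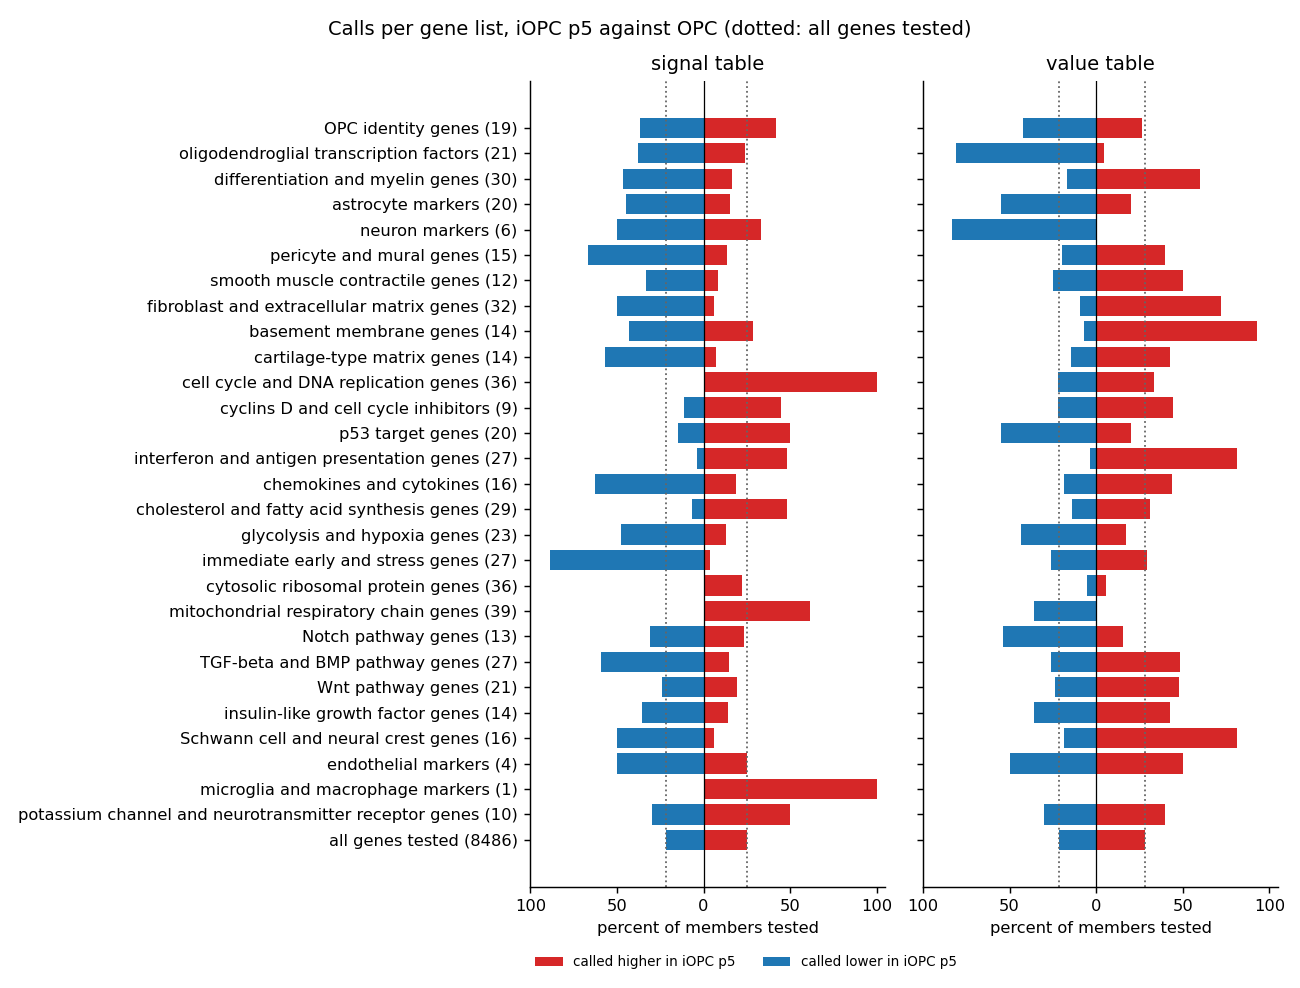
Share of each gene list's tested members called higher (right) and lower (left) in iOPC p5, in the signal table and in the value table; the number tested stands beside each list and dotted lines mark the shares over all 8486 genes. In the signal table the cell cycle list is higher throughout (36 of 36) and the immediate early list lower (24 of 27), and in the value table the basement membrane list is higher (13 of 14) and the oligodendroglial transcription factors lower (17 of 21).

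Set side by side, the changes in the tables were nearly unrelated, with a Pearson correlation of -0.10 and a Spearman correlation of -0.07 across 8486 genes, which are not independent replicates. Of the genes called higher in the signal table, 563 (26.7%) were called higher and 497 (23.6%) lower in the value table. Of those called lower, 407 (22%) were lower and 668 (36.1%) higher there. As shares of the value table's calls these are 23.3%, 27.3%, 22.3% and 27.6%. The value table called 28.5% of all genes tested higher and 21.5% lower, so the same-direction shares of 26.7% and 22% were near those over all genes. Over all genes tested, 6.63% were higher in both, 4.8% lower in both, 5.86% higher in the signal table and lower in the value table, and 7.87% the reverse. Without OPC replicate 1 or 2 the genes higher in both numbered 310 or 316, those lower in both 216 or 238, and those called in opposite directions 729 or 713, against 1165 with all arrays.

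**Figure D5:**
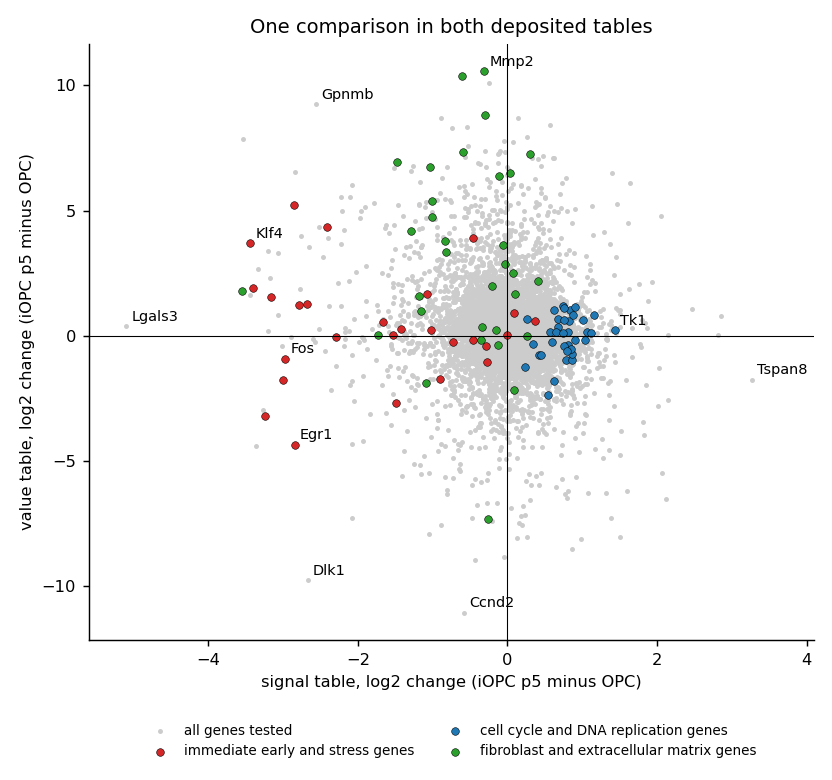
Log2 change (iOPC p5 minus OPC) of each of 8486 genes in the signal table (horizontal) and in the value table (vertical), with 3 gene lists in colour and 10 genes named. The correlation is weak (Pearson -0.10); immediate early genes lie to the left at either sign of the value table, cell cycle genes to the right near 0, and matrix genes mostly above 0.

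Some immediate early genes were lower in iOPC p5 in both tables. Of all the signal table's falls 22% were called lower by value, against 21.5% of all genes tested. Egr1 stood at 8.28 and 8.32 in the iOPC p5 columns of the value table and at 12.69 and 12.65 in its OPC columns (log2 change -4.37, SE 0.176, limma adjusted p 8.45e-07). Dusp10 stood at 3.37 and 3.70 in the iOPC p5 columns of the value table and at 8.03 and 7.84 in its OPC columns. Egr2 fell by 3.24 in the signal table and 3.22 in the value table, Gadd45g by 3.27 and 2.98, and Id3 by 2.36 and 2.17. Of the 27 immediate early genes 7 were lower in both tables, 0 higher in both and 8 opposite. Dlk1, an imprinted gene of a ligand-like membrane protein, stood at 5.28 and 4.92 log2 signal on the iOPC p5 arrays and at 7.78 and 7.76 on the OPC arrays. Its values were 0.91 and 1.20 in the iOPC p5 columns and 10.88 and 10.76 in the OPC columns. The cyclic GMP kinase gene Prkg2 fell by 2.08 and 4.32, and podoplanin (Pdpn), a mucin-type membrane protein, by 2.08 and 7.29.

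The largest rises called in both tables included secreted proteins and transcription factors. Of all the signal table's rises 26.7% were called higher by value, against 28.5% of all genes tested. The chemokine gene Ccl9 stood at 7.75 and 7.78 log2 signal on the iOPC p5 arrays and at 6.10 and 6.15 on the OPC arrays, and its value was 7.95 and 7.21 in the iOPC p5 columns and 1.39 and 1.58 in the OPC columns. Col18a1, the collagen that releases endostatin, rose by 1.45 and 3.15, although 1 of its 3 probes changed by 0.11 in the value table (limma adjusted p 0.844), and the forkhead gene Foxa3 by 1.61 and 4.48. Hs3st3a1, which sulfates heparan chains, rose by 1.43 and 2.43, the homeobox gene Msx1 by 1.87 and 1.39, and the cytochrome P450 gene Cyp2d22 by 1.40 and 6.49. Cyp2d22 belongs to a multigene family, and whether its probe also reads related genes was not tested. Sema3b, a secreted guidance cue, rose by 1.51 and 1.66, although its second probe changed by 0.13 in the value table. Of the 27 interferon and antigen presentation genes 12 were higher in both, 0 lower in both and 2 opposite. Cell cycle genes had 12 higher in both, 0 lower in both and 8 opposite, and the opposite ones included the helicase genes Mcm2 (0.23 and -1.23) and Mcm7 (0.55 and -2.35, or -1.37 without iOPC p5 replicate 1).

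Other genes turned over between the tables. Tfap2b was at least 11.2-fold lower in the signal table and 7.86 higher in the value table. Klf4 fell by 3.44 in the first and rose by 3.70 in the second, Mef2c, a MADS-box factor of muscle and neurons, fell by 3.21 and rose by 3.38, and the neurotrophin receptor gene Ngfr, detected on 1 of 2 iOPC p5 arrays, changed by -3.07 and 3.29. Ntrk3 rose by 2.12 and fell by 6.52, Gad1 rose by 2.15 and fell by 2.56, Inhbb rose by 2.07 and fell by 5.49, and Rapgef5, an activator of Ras-like GTPases, rose by 2.01 and fell by 2.80. Gpnmb, a glycoprotein of phagocytes and pigment cells, fell by 2.56 in the signal table and rose by 9.25 in the value table, where 1 of its 4 probes changed by 3.52 and did not pass (limma adjusted p 0.103). Each of these directions belongs to its own table's headings.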

How the data were processed

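Per the labels' protocols, total RNA was made into biotin-labelled cRNA; the labels also describe a second kit for sorted transplanted cells without saying which arrays used it. The submitters' processing notes name BeadStudio 3.2, RMA and lumi without their roles. The deposited signal table holds a non-normalized intensity per probe, per the file headers, and beside it the deposited detection p-value, whose steps imply 798 negative controls. The authors' deposited values are on a log2 scale, with a median of 3.29 in the column of PC replicate 1. Their background correction is not given in the sources used here.

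Of 25697 probes 23978 had 1 symbol in the platform annotation, 0 several and 1719 none, and 23962 were named through Entrez identifiers. The filter left 12578 probes, 11847 of them with a symbol. For 2380 genes with several such probes the one with the highest mean over the 4 arrays was used; probes of 1 gene were called in opposite directions in 11 (signal) and 38 (value) of them. Signals were corrected with limma's neqc (offset 16), which also quantile-normalizes and takes log2, and the values were used as deposited. Both tables were fitted with limma 3.58.1 in R 4.3.3 (lmFit, a mean per group over 10 arrays, 5 residual degrees of freedom, eBayes), two-sided, with Benjamini-Hochberg adjustment over 8486 genes and a call under 0.05. Where a gene was not detected on either array of a group, an at-least fold compares the bright group's mean with, per array, the higher of the lowest detected signal and the gene's own. Such a gene passed the filter only through the bright group, and its p-value is that of the fitted change, not of the bound. Replicate numbers did not pair samples: deviations of same-numbered arrays correlated at -0.05 (signal) and -0.0014 (value).

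Data were simulated for 8486 genes, of which only 67, 67 and 66 were changed, by 1.5-, 2- and 4-fold. The signal fit found 77.6%, 95.5% and 100% of these changes, with 6 false calls in all. Under the value table's spread it found 5.97%, 31.3% and 80.3%, with 6. The real fits called 46.7% (signal) and 50% (value) of genes, so these rates need not hold for them. The members and the 28 lists were chosen with earlier results of these data known. Genes named are 16 fixed markers and a heading check, the largest non-overlapping rises and falls per table (10 signal, 8 value), those shared by both tables (8 a direction) or opposite (4 a direction), up to 4 members of a list per table, and members that moved against their list; genes of unclear function were passed over, and a fixed marker is not reported here. Promoters are RefSeq's for GRCm38.p6. Plots used Python 3.11.15 and matplotlib 3.10.9.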

Additional observations from a re-analysis of the deposited data

How the results depend on the processing

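The alternatives tried were other background corrections and scalings, other detection filters, every probe on its own, other variance models, array weights, floored low values, the 4 arrays alone, each array left out in turn, and a replicate block. Total calls ran from 3073 to 4264 genes in the signal table and from 2967 to 4845 in the value table, beside 5085 and 5314 probes with every probe on its own. No call turned to one in the opposite direction in either table, except that this was not counted for single probes. Calls of at least 2-fold in the signal table, 162 higher and 280 lower, numbered 43 and 126 without background correction and 66 and 165 with normexp without control probes. Genes called lower in the value table, 1823 with all arrays, numbered 1168 with the 4 arrays alone and between 1179 and 2069 with 1 array left out. Leaving out 1 array gave between 310 and 503 genes higher in both tables, between 216 and 357 lower in both and between 713 and 1060 opposite. The fit with the replicate number as a block called 3934 genes in the signal table and 4180 in the value table, and changed no count by more than 1.5 times. The change of Cspg4 in the value table was 1.13 without iOPC p5 replicate 1 (limma adjusted p 0.00364) and -1.73 without replicate 2, against -0.30 with both; the cause was not tested. Over the named genes and settings, 2659 results of the signal table kept their side of the threshold, 71 lost a call and 25 gained one. Results uncalled in both fits were counted as kept whatever their direction. Of the value table's results 2220 kept their side of the threshold, 94 lost a call and 12 gained one. A further result, Cspg4 as above, gained a call against the direction of its change with all arrays. Genes near background on these arrays, such as Olig2, could not be tested.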
